A study of Mus musculus with 69 samples.

Results

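The neutrophil granule and activation genes were a set of 31 mouse genes, chosen by name, that encode the proteins stored in neutrophil granules, the main cytosolic and secreted proteins of the neutrophil, its activating receptors and the regulators of granule formation. This set and the other gene lists were chosen with earlier results of these data known, so counts beside shares of all genes are descriptive. A member was measured through every array probe whose transcript matched its symbol, and 29 of the 31 were measured among 17628 genes in all, while Cebpe and Ly6g had no matched probe and were not analysed here. The 29 genes were placed in 3 stages by what is known of neutrophil maturation. The 5 precursor members were the primary granule genes Mpo, Elane, Ctsg and Prtn3 and the transcription factor gene Gfi1. The 6 secondary granule members were Ltf, Camp, Ngp, Pglyrp1, Cd177 and Itgb2l, and the other 18 were genes of the mature cell.

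The lungs came from female C57BL/6 mice that were 5 to 7 weeks old at arrival and acclimatised for 1 to 3 weeks. Each mouse was instilled once through the trachea with 18, 54 or 162 µg of a titanium dioxide (TiO2) nanoparticle, either NRCWE-001, which carried no added charge, or NRCWE-002, which was positively charged, and controls received the vehicle of 2% serum in water. Lungs were taken on day 1 or day 28, with 5 mice in every group but the day 28 vehicle group, which had 4, so that 69 mice in 14 groups gave 69 arrays. RNA from a small frozen piece of lung was labelled red and hybridised beside green-labelled Universal Mouse Reference RNA. Every level below is a log2 ratio of lung to reference, while every difference is in log2 units between groups. The question put to the data was how the genes of this cell type changed with particle, dose and time.

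Neutrophils are made in the bone marrow and carry their weapons in granules that are filled in sequence as the cell matures. Promyelocytes make the primary granule enzymes, later precursors make the secondary granule proteins, and the mature cell that leaves the marrow has largely stopped transcribing both and instead transcribes receptors for chemoattractants and growth factors, calgranulins and inflammatory mediators. In the lung, neutrophils enter the airspaces from blood within hours of the deposition of particles. The transcription factors C/EBP epsilon and PU.1 are known to drive the granule genes.

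Promoter sequences are shown for the 4 members called at 162 µg on day 1 and for a pair of primary granule genes as a contrast. They were taken from the RefSeq table for GRCm38.p6, in which 29 of the 31 members had an entry. Cebpe and Trem3 had none, so these are not the same 29 genes as those measured. Each line gives the 250 bases before the annotated start, 5′ to 3′ on the strand of the gene, in lower case, with matches to a C/EBP motif (TTNNGNAA on either strand) or a PU.1 motif (GAGGAA on either strand) in capitals. Trem1 lies at chr17:48232489-48232738 on the plus strand, Csf3r at chr4:126024409-126024658 on the plus strand, Cd177 at chr7:24760312-24760561 on the minus strand, Lrg1 at chr17:56121947-56122196 on the minus strand, Mpo at chr11:87793534-87793783 on the plus strand and Elane at chr10:79886062-79886311 on the plus strand.
Trem1: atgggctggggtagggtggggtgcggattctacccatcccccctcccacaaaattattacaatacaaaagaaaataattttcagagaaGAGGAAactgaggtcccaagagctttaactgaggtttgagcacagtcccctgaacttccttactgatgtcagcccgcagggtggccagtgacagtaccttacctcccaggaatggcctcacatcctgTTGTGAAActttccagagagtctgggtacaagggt
Csf3r: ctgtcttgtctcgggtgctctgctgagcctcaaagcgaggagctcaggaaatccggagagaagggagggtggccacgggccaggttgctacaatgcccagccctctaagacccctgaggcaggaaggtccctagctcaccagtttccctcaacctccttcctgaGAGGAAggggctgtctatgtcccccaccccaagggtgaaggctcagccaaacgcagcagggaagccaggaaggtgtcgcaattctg
Cd177: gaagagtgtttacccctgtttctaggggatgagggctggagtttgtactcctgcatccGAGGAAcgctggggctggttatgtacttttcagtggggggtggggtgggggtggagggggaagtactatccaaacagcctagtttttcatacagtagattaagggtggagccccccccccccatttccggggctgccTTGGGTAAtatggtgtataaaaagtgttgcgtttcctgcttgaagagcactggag
Lrg1: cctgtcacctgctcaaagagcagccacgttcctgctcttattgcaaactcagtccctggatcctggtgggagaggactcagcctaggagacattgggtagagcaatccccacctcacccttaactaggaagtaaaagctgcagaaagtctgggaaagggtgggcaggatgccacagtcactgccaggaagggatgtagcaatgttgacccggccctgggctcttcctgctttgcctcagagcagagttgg
Mpo: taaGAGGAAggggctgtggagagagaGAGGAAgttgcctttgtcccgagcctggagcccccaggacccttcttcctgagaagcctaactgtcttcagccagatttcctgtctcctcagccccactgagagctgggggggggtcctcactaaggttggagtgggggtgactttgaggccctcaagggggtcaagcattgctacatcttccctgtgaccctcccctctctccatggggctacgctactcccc
Elane: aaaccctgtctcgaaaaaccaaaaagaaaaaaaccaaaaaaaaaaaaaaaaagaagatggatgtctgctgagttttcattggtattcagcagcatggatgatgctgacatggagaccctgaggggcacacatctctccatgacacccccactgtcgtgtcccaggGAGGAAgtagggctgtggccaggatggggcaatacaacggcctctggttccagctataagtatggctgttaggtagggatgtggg

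Trem1 and Cd177 each held 1 match to both motifs. Csf3r, like Mpo and Elane, held PU.1 matches and no C/EBP match, and Lrg1 held neither. Among the mature members 13 of 18 promoters (72.2%) had a C/EBP match, as had 4 of 6 secondary granule promoters (66.7%) and 0 of 5 precursor promoters, against 36.8% of all 32851 promoters in the table. A PU.1 match was found in 6 of 18 mature promoters (33.3%), 4 of 6 secondary granule promoters (66.7%) and 4 of 5 precursor promoters (80%), against 23.3% of all promoters. The 18 mature promoters include that of Ly6g, which was not measured, and lack that of Trem3, which was. They are therefore not the 18 measured mature members. In these counts the first listed window was used for Gfi1 and Ly6g, which have a pair of windows each. The other Gfi1 window did hold a C/EBP match. A match describes these letters only.

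Between 61.4% and 87.8% of spots per array were well above background in the lung channel, and no spot was saturated. The 69 arrays lay on 18 slides. The alveolar and airway epithelial markers were high relative to the reference on every array, at a mean log2 ratio of at least 5.08 for the alveolar list and 3.05 for the airway list, as the lung label requires. Of the 29 members, 20 had a probe well above background on all 69 arrays. The 9 that did not were all 5 precursor members, the secondary granule genes Camp, Ngp and Itgb2l, and the mature gene Prok2. No precursor member was thus well above background throughout. Mpo was so on 66 arrays, Gfi1 on 60, Ctsg on 57 and Prtn3 on 46. Elane was above background on 7 arrays and Prok2 on 11, with none among the vehicle arrays. Their fitted values count in the tests and in the scores per mouse, but no difference is given for them, and the stage ranges and medians and the plotted differences at 162 µg leave them out.

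On day 1 at 162 µg, 4 members were called higher with at least 1 particle, namely 3 genes of the mature cell and the secondary granule gene Cd177, and no precursor member was called. With NRCWE-001 at 162 µg, 3 of 29 members were called higher at an adjusted p under 0.05 over all genes, against 0.425% of all genes called higher and 0.562% called in either direction in that comparison. These were Cd177, a glycoprotein of secondary granules and the neutrophil surface, Csf3r, the receptor for granulocyte colony-stimulating factor, and Trem1, an amplifying receptor on myeloid cells. With NRCWE-002 at 162 µg, 2 of 29 were called higher, against 0.477% of all genes called higher and 0.59% called in either direction, namely Lrg1, a glycoprotein of neutrophil granules and of plasma, and Trem1. No member was called lower in either comparison. The exposed groups were compared with the same 5 vehicle mice. In pieces of whole lung, a change in the number of neutrophils and a change in RNA per neutrophil cannot be told apart.

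Over all 3 doses together on day 1, the F-test called Csf3r and Trem1 for NRCWE-001 (2 of 29, against 0.686% of all genes) and Cd177, Lrg1 and Trem1 for NRCWE-002 (3 of 29, against 0.817%). In the authors' deposited table of log2 ratios the same 3 and 2 members were called at 162 µg. These calls depended on 1 processing step that was chosen after the data were seen: spots with an outlying local background were kept out of the fit of the background model, and with all spots in that fit no member was called in any of these 4 comparisons, although 108 genes were called for NRCWE-001 and 34 for NRCWE-002 at 162 µg. With the signals as processed by the scanner software, 0 and 1 members were called at 162 µg, and the Csf3r difference with NRCWE-001 was -0.032. Leaving out single mice moved the counts too. The shares of all genes called in those fits are not given, so a loss of members and a loss of calls throughout cannot be told apart. For NRCWE-001 at 162 µg, 0 members were called without vehicle replicate 1, 2, 3 or 5 or exposed replicate 1, 3 or 4, and 4 without exposed replicate 5. For NRCWE-002 the count was 0 without exposed replicate 2, 1 without exposed replicate 1, 3 or 4 or vehicle replicate 2, 3 or 5, and otherwise 2.

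Trem1 was the member called for both particles at 162 µg. On day 1 its level in the 5 vehicle mice was 0.14, 0.17, 0.08, 0.19 and 0.04, in the NRCWE-001 mice at 162 µg 0.65, 0.31, 0.83, 0.75 and 0.17, and in the NRCWE-002 mice at 162 µg 0.51, 0.79, 0.56, 0.69 and 0.25. All 5 NRCWE-002 mice were above all vehicle mice, whereas the lowest NRCWE-001 mouse lay within the vehicle range. With NRCWE-001 the difference from vehicle was 0.42 ± 0.10 (SE, n = 5 and 5; adjusted p = 0.0251). With NRCWE-002 it was 0.43 ± 0.10 (adjusted p = 0.0192). Its 2 probes gave differences of 0.55 and 0.28 with NRCWE-001, and the second was well above background in 3 of the 5 vehicle mice. Over the other processing settings the Trem1 difference ran from 0.27 (background model fitted on all spots) to 1.28 (processed scanner signals) with NRCWE-001, and from 0.39 (slide as a fixed block) to 1.78 (processed signals) with NRCWE-002, always above 0.

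Csf3r passes the growth signal that sustains neutrophil production. Its level on day 1 was 0.75, 0.97, 0.86, 1.11 and 0.86 in vehicle mice, 1.94, 1.44, 2.07, 2.19 and 0.90 with 162 µg of NRCWE-001, and 1.53, 1.83, 1.44, 1.45 and 1.41 with 162 µg of NRCWE-002. Again 4 of 5 NRCWE-001 mice and all 5 NRCWE-002 mice were above every vehicle mouse. The differences were 0.80 ± 0.19 (a 1.74-fold rise, adjusted p = 0.0273) and 0.62 ± 0.19 (adjusted p = 0.138), so only the first was called.

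Cd177 on day 1 was at 0.05, 0.08, 0.17, 0.28 and 0.16 in vehicle mice, at 1.59, 1.10, 1.42, 2.33 and 0.14 with 162 µg of NRCWE-001, and at 1.04, 1.71, 1.08, 0.77 and 1.20 with 162 µg of NRCWE-002. The vehicle mice were tightly grouped, and 9 of the 10 exposed mice stood clear above them. The difference was 1.17 ± 0.27 for NRCWE-001 (2.25-fold, adjusted p = 0.0218) and 1.01 ± 0.27 for NRCWE-002 (adjusted p = 0.0645). Over the other settings it ran from 0.83 to 2.05 and from 0.86 to 2.33, highest with processed scanner signals for both. The exception for Cd177, Csf3r and Trem1 was the same animal, replicate 5 of the NRCWE-001 group.

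Lrg1 on day 1 was at 3.23, 2.57, 3.20, 3.48 and 3.16 in vehicle mice, at 4.23, 3.83, 4.07, 4.27 and 3.23 with 162 µg of NRCWE-001, and at 4.67, 4.24, 4.05, 4.07 and 3.81 with 162 µg of NRCWE-002. All NRCWE-002 mice exceeded all vehicle mice, by 1.04 ± 0.23 on average (2.06-fold, adjusted p = 0.0153). With NRCWE-001 the difference was 0.80 ± 0.23 (adjusted p = 0.112), and replicate 5 was inside the vehicle range. At 54 µg of NRCWE-002, Lrg1 was 4.63, 3.61, 3.94, 4.41 and 3.78 and also above every vehicle mouse, with a difference of 0.95 ± 0.23 (adjusted p = 0.0982).

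**Figure D1:**
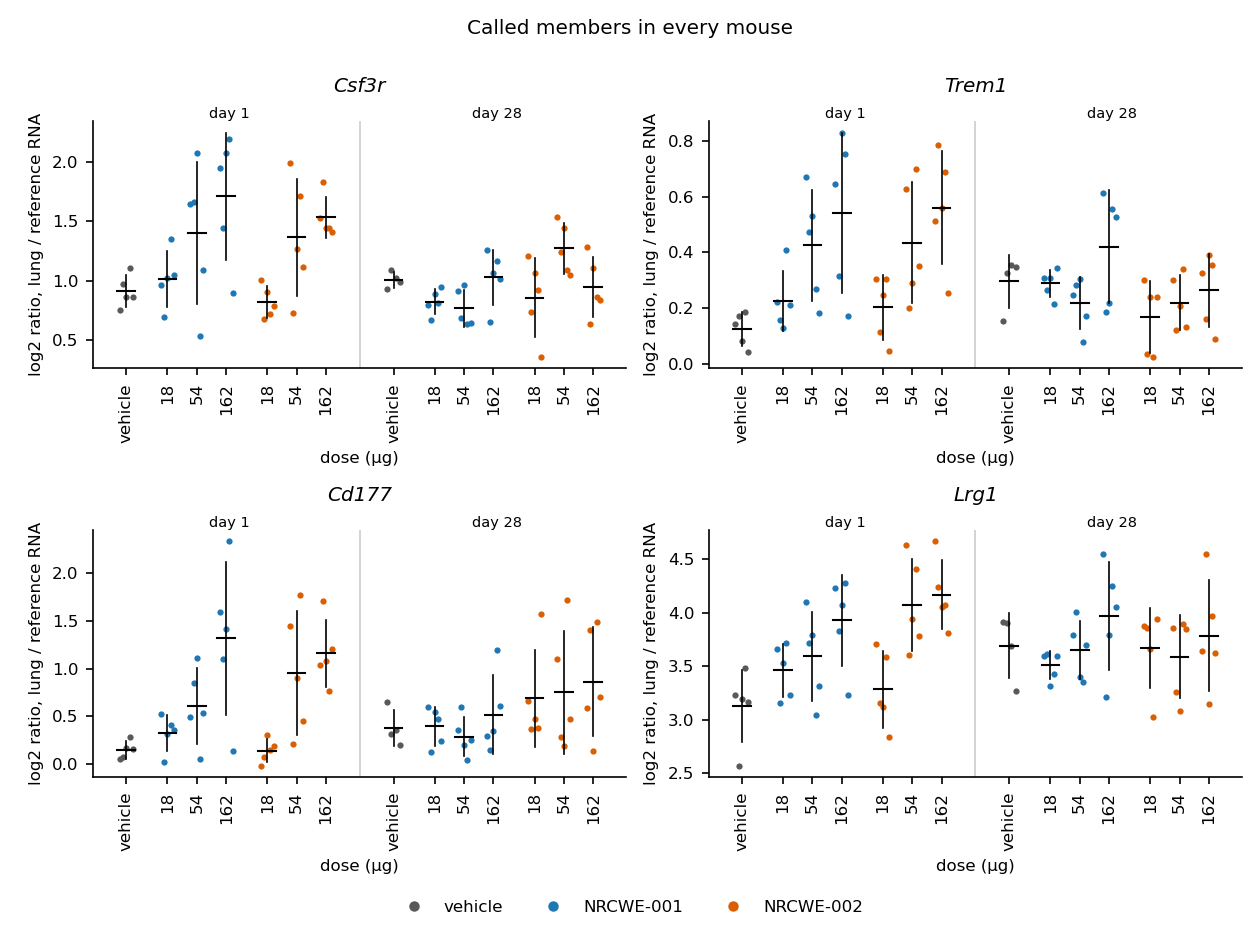
Level of Csf3r, Trem1, Cd177 and Lrg1 in every mouse (points; log2 ratio of lung to reference) by dose in µg, particle and day, with the group mean (horizontal bar) and SD (vertical line). On day 1 the 5 NRCWE-002 mice at 162 µg sit above all vehicle mice in each panel, while 1 NRCWE-001 mouse at 162 µg stays at the vehicle level.

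At 162 µg on day 1, 6 members had every NRCWE-002 mouse above every vehicle mouse, namely Pglyrp1, Cd177, Lrg1, Csf3r, Trem1 and Adam8, against 3.53% of all genes. For NRCWE-001 the count was 0, against 1.98% of all genes. At an unadjusted p under 0.05, 10 of 29 members passed for each particle, and 9 of these 10 were higher, where 4.41% and 5.76% of all genes were. The exception for both was Fpr1.

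The other surface proteins included Adam8, a membrane metalloprotease of activated leukocytes. On day 1 Adam8 was at -2.28, -2.56, -2.23, -2.00 and -1.78 in vehicle mice and at -1.77, -1.04, -1.15, -0.64 and -1.69 with 162 µg of NRCWE-002. The groups did not overlap, though the lowest exposed mouse and the highest vehicle mouse nearly touched. The difference was 0.91 ± 0.32 (adjusted p = 0.232), and for NRCWE-001 it was 0.80 ± 0.32 (adjusted p = 0.457). Trem3, a paralogue of Trem1, differed by 0.33 ± 0.11 and 0.32 ± 0.11 for the particles in that order (adjusted p = 0.281 and 0.249). Fpr1, the high-affinity receptor for formylated bacterial peptides, had the opposite sign. It was at 2.59, 2.76, 2.97, 2.92 and 2.12 in vehicle mice, at 2.14, 1.93, 2.12, 1.12 and 2.61 with NRCWE-001 and at 2.53, 1.86, 1.75, 1.71 and 2.57 with NRCWE-002. The exposed and vehicle mice overlapped, and the differences of -0.69 ± 0.26 and -0.59 ± 0.26 were not called (adjusted p = 0.378 and 0.458). Its paralogue Fpr2 and Mcemp1, a membrane protein of mast cells, macrophages and neutrophils, had estimates between -0.07 and -0.35, none called.

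The secreted and cytosolic members of the mature cell showed larger spread. S100a8, which forms the antimicrobial calprotectin with S100a9, was at 2.74, 1.97, 2.38, 2.95 and 1.91 in vehicle mice, at 4.14, 2.69, 3.55, 3.33 and 2.63 with 162 µg of NRCWE-001 and at 3.39, 3.52, 2.27, 2.98 and 3.44 with NRCWE-002. Most exposed mice were higher but the ranges overlapped, and the differences of 0.88 ± 0.31 and 0.73 ± 0.31 were not called (adjusted p = 0.293 and 0.413). S100a9 differed by 0.23 ± 0.27 and 0.24 ± 0.27, the smaller pair of values although the proteins act as a dimer. Slpi, an inhibitor of neutrophil elastase that airway epithelium also secretes, had the largest estimate of the mature stage with NRCWE-001, at 0.90 ± 0.48, but its 5 mice ran from -1.37 to 1.63 and the vehicle mice from -1.62 to -0.06 (adjusted p = 0.772). Retnlg, a resistin-like protein of neutrophils, differed by 0.65 ± 0.33 and 0.49 ± 0.33. The other secreted or cytosolic members, Hdc, Padi4 and Anxa1, had estimates between -0.18 and 0.18, none called. Of the signalling and regulatory members, Mxd1, a repressor that accompanies terminal differentiation, differed by 0.19 ± 0.08 and 0.10 ± 0.08, and Fgr, a Src family kinase, by 0.23 ± 0.23 and 0.06 ± 0.23, none called.

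Beside Cd177, the secondary granule members ranged from the largest estimate of the set to estimates near 0. Ltf, the iron-binding lactoferrin, was at 1.83, 1.48, 1.51, 2.07 and 3.07 in vehicle mice, at 4.40, 2.87, 2.56, 5.64 and 1.33 with 162 µg of NRCWE-001 and at 2.98, 3.99, 2.72, 4.19 and 3.67 with NRCWE-002. The differences were the largest of all members, 1.37 ± 0.67 and 1.51 ± 0.67, and neither was called (adjusted p = 0.679 and 0.450). The NRCWE-001 mice spanned the whole vehicle range, with replicate 5 below every vehicle mouse, and 1 vehicle mouse lay among the NRCWE-002 mice. Pglyrp1, a bactericidal peptidoglycan recognition protein, differed by 0.50 ± 0.26 and 0.69 ± 0.26 (adjusted p = 0.743 and 0.290). Camp, the cathelicidin precursor, Ngp, a neutrophilic granule protein, and Itgb2l, an integrin beta chain, had estimates between -0.09 and 0.06.

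Precursor members stayed near their vehicle levels in the mice of the highest dose. Mpo, the myeloperoxidase of primary granules, was at -0.07, -0.18, -0.35, 0.07 and -0.25 in vehicle mice, at 0.10, -0.15, -0.29, -0.22 and -0.17 with 162 µg of NRCWE-001 and at -0.33, -0.44, -0.26, -0.13 and -0.41 with NRCWE-002. The 3 groups overlapped, and the differences were 0.01 with a 95% interval of -0.42 to 0.43 and -0.16 with an interval of -0.58 to 0.27. Over the 4 precursor members other than Elane the estimates ran from -0.02 to 0.06 for NRCWE-001 and from -0.16 to 0.14 for NRCWE-002, none called and none at an unadjusted p under 0.05. These members were dim, so small relative changes in them were not detectable in these arrays.

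By stage, the median difference at 162 µg on day 1 without Elane and Prok2 was 0.23 for NRCWE-001 and 0.24 for NRCWE-002 over 17 mature members, 0.28 and 0.36 over the 6 secondary granule members, and 0.0088 and 0.06 over 4 precursor members. The medians over all genes were 0.01 and 0.01. Estimates were above 0 for 20 and 20 of these 27 members, where 53.1% and 54.9% of all genes were above 0.

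**Figure D2:**
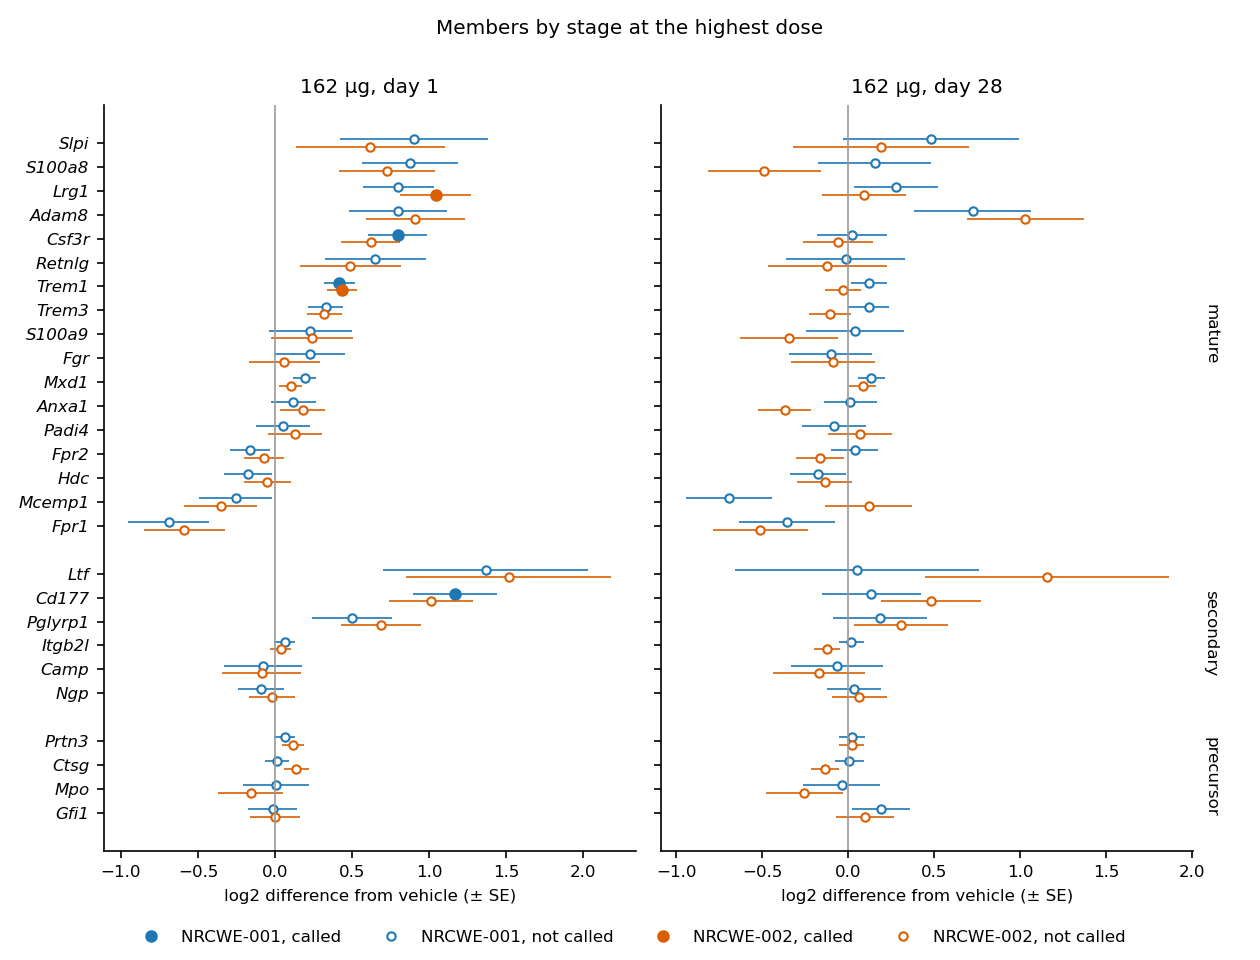
Log2 difference from same-day vehicle (points) with its standard error (lines) for 27 members at 162 µg (Elane and Prok2 left out as not above background in vehicle mice), by stage and in order of the NRCWE-001 estimate on day 1. Filled points, called at an adjusted p under 0.05, occur on day 1 for Csf3r, Trem1, Cd177 and Lrg1; the precursor estimates lie within 0.16 of 0 on day 1.

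The stages were also summarised as a score per mouse, the mean over members of the level minus the mean of the same-day vehicle mice. At 162 µg on day 1 the score of all 29 members was 0.28 ± 0.25 (SD, n = 5) for NRCWE-001 and 0.28 ± 0.09 for NRCWE-002, against an SD of 0.14 in the vehicle mice. The mature score was 0.29 ± 0.27 and 0.27 ± 0.11, the secondary granule score 0.49 ± 0.50 and 0.52 ± 0.19, and the precursor score 0.02 ± 0.06 and 0.02 ± 0.02. These NRCWE-001 scores depended on the background step named above. With the background model fitted on all spots they were -0.118 ± 0.76 for the mature, 0.17 ± 0.67 for the secondary granule and 0.14 ± 0.25 for the precursor members, and -0.0143 ± 0.56 over all, so that the mature score fell below the precursor score, while the NRCWE-002 scores moved by less than 1 SD. Without Elane and Prok2 the reported mature scores were 0.30 and 0.28 and the precursor scores 0.016 and 0.024. The NRCWE-001 mice were much more spread than the NRCWE-002 mice, from -0.09 to 0.51 against 0.17 to 0.41 for all members. The secondary granule score rested on Ltf, Cd177 and Pglyrp1, as Camp, Ngp and Itgb2l had estimates between -0.09 and 0.06. NRCWE-001 replicates 4 and 1 had the highest secondary granule scores, 1.13 and 0.82, and airway list scores of 1.34 and 1.47. In the other mice of that group the airway score ran from -0.762 to -0.135, and its part in the secondary granule score was not tested. At 54 µg on day 1 the score of all members was 0.15 ± 0.21 with NRCWE-001 and 0.16 ± 0.27 with NRCWE-002, and at 18 µg it was 0.06 ± 0.11 and -0.04 ± 0.15, within the spread of the vehicle mice. Some mice of these lower doses lay on slides 11 and 12, which held no day 1 vehicle or 162 µg mouse. They scored from -0.14 to -0.08, so dose and slide cannot be fully told apart in these scores.

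**Figure D3:**
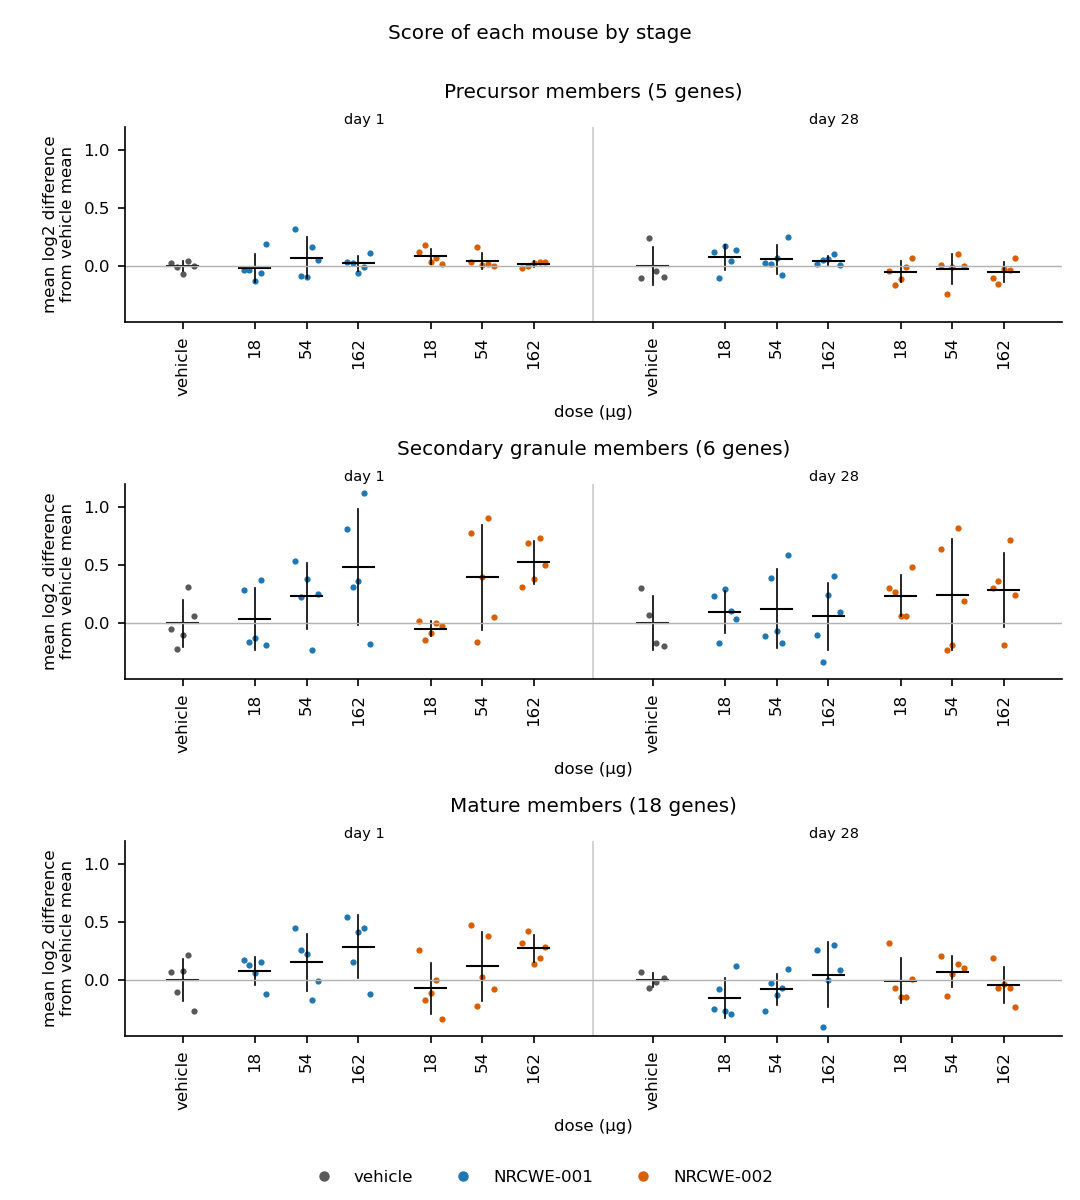
Score of each mouse (points; mean log2 difference of the stage's members from the mean of same-day vehicle mice) by dose in µg, particle and day, with group mean (horizontal bar) and SD (vertical line). On day 1 the mature and secondary granule scores are higher at 162 µg, at 0.29 and 0.49 for NRCWE-001, whereas the precursor score stays near 0.02. The secondary granule score rests on Ltf, Cd177 and Pglyrp1, while Camp, Ngp and Itgb2l stay near their vehicle levels. With the background model fitted on all spots the NRCWE-001 mature score is -0.118 and the precursor score 0.14.

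At the lower doses on day 1 no member was called by limma, against 0% of all genes for both doses of NRCWE-001 and for 18 µg of NRCWE-002 and 0.0624% for 54 µg of NRCWE-002. At an unadjusted p under 0.05, 5 members passed at 54 µg of NRCWE-001, 8 at 54 µg of NRCWE-002, 3 at 18 µg of NRCWE-001 and 0 at 18 µg of NRCWE-002, where 4.56%, 5.85%, 4.91% and 2.97% of all genes did. Prok2 was among the 5 at 54 µg of NRCWE-001. Trem1 and Lrg1 were above every vehicle mouse in all 5 mice at 54 µg of NRCWE-002, where 1.69% of all genes were so separated. The group means lay in dose order from vehicle to 162 µg for 6 members with NRCWE-001 (Ltf, Cd177, Lrg1, Csf3r, Trem1 and Adam8) and for 7 with NRCWE-002 (Prtn3, S100a8, Slpi, Lrg1, Anxa1, Trem1 and Adam8). Of these, Prtn3 was well above background in 2 of the 5 vehicle mice. On day 28 such an order held for 1 member with each particle. The share of all genes in dose order was not counted, so these counts cannot be set against a background.

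Between 21.2% (Itgb2l) and 80.0% (Anxa1) of the spread within groups lay between slides, with a median of 50.2%, where slides took 30.9% of the degrees of freedom, and 26 of 29 members were above that share. Scan day took 20% of the degrees of freedom and held between 8.64% (Cd177) and 66.7% (Anxa1), with 23 members above 20%. With slide as a fixed block, 7 members were called at 162 µg of NRCWE-001 on day 1 instead of 3, while the share of all genes called rose from 0.562% to 4.3%, adding S100a8 (0.96, adjusted p = 0.0179), Lrg1 (0.90, adjusted p = 0.00453), Trem3 (0.29) and Mxd1 (0.20), and the F-test called 11 members and 7.39% of all genes. At 54 µg with that block Csf3r (0.68) and Trem1 (0.36) were called for NRCWE-001 (0.749% of all genes), and Lrg1 (1.05), Csf3r (0.64) and Trem1 (0.36) for NRCWE-002 (1.39%). Within the 3 slides that held both a vehicle and a 162 µg NRCWE-001 mouse of day 1, Cd177 was higher by 1.54, 1.02 and 1.25, Csf3r by 1.19, 0.47 and 1.21, and Trem1 by 0.50, 0.14 and 0.74. Within the 2 slides that did so for NRCWE-002, Lrg1 was higher by 1.19 and 0.89 and Trem1 by 0.32 and 0.52. All of these within-slide differences had the sign of the pooled difference, but these genes were picked because they were called from the same mice. NRCWE-001 replicate 5 lay on a slide without a vehicle mouse and did not enter. Not every member kept its sign. With NRCWE-002, S100a9 differed by -0.15 and -0.14 within those slides, and Ltf by 0.91 and -0.35.

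By day 28 no member was called in any of the 6 dose comparisons by limma, with 3, 0 and 1 members at an unadjusted p under 0.05 for 162, 54 and 18 µg of NRCWE-001 and 2, 2 and 2 for NRCWE-002. Prok2 was among the 3 at 162 µg of NRCWE-001. Of all genes, 8.62%, 2.91% and 8.16% passed that unadjusted threshold for the NRCWE-001 doses and 6.71%, 4.96% and 6.07% for the NRCWE-002 doses. The shares of all genes called were 0.0454%, 0% and 0.193% for the NRCWE-001 doses in that order and 0.00567%, 0% and 0% for the NRCWE-002 doses, and 0.477% of genes were called by the F-test for NRCWE-001, 0 of them members. The score of all members at 162 µg was 0.05 ± 0.22 for NRCWE-001 and 0.02 ± 0.11 for NRCWE-002. The single NRCWE-001 mice scored 0.14, -0.31, 0.06, 0.29 and 0.08. The lowest, replicate 2, lay on slide 12, which held no day 28 vehicle mouse, so mouse and slide cannot be told apart in its score. By stage, the mature score was 0.05 ± 0.28 and -0.04 ± 0.15, and the precursor score 0.05 ± 0.04 and -0.05 ± 0.09. The secondary granule score was 0.06 ± 0.29 and 0.29 ± 0.32, against an SD of 0.23 in the vehicle mice. At 54 and 18 µg of NRCWE-002 the secondary granule score was 0.25 ± 0.48 and 0.24 ± 0.18. The 95% intervals of the 162 µg differences reached to either side of the estimate by a median of 0.449 over 27 members. This reach ran from 0.147 for Itgb2l to 1.42 for Ltf. The intervals are not adjusted over all genes, so differences within these limits, and some beyond them, could go uncalled. Csf3r differed from vehicle by 0.02 (95% interval -0.38 to 0.43) and -0.06 (-0.47 to 0.35). Adam8 had the largest day 28 estimate for NRCWE-001, 0.72 ± 0.34, and a like one of 1.03 for NRCWE-002 (adjusted p = 0.536 and 0.512). The largest NRCWE-002 estimate at 162 µg, 1.16, was that of a secondary granule member and was not called.

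The change between days was tested as the difference of the 162 µg effects. No member was called by limma for either particle, and neither was any other gene, with 3 members at an unadjusted p under 0.05 for NRCWE-001, against 4.35% of all genes, and 7 for NRCWE-002, against 6.7%. All of these differences were below 0. For NRCWE-002 the effect on Trem1 was lower by 0.47 ± 0.14 (adjusted p = 0.522), on Lrg1 by 0.95 ± 0.34 (adjusted p = 0.581) and on S100a8 by 1.21 ± 0.45 (adjusted p = 0.598). For NRCWE-001 the effect on Csf3r was lower by 0.77 ± 0.28 and on Cd177 by 1.03 ± 0.40 (adjusted p = 0.9998 for both). Vehicle mice of the 2 days differed in 0 called members, with Lrg1 alone, against 5.77% of all genes, at an unadjusted p under 0.05 (0.57 ± 0.25 higher on day 28, adjusted p = 0.837).

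The particles were compared at matched doses and days, in 4 comparisons per gene with p adjusted over all genes in each. At 162 µg on day 1 no member and no other gene was called by limma, and no member passed an unadjusted p under 0.05, which 1.07% of all genes did. NRCWE-002 minus NRCWE-001 ran from -0.28 to 0.24 over the members. For Trem1 it was 0.02 with a 95% interval of -0.18 to 0.22, and for Csf3r -0.18 (-0.56 to 0.21). For Lrg1 it was 0.24 (-0.22 to 0.71) and for Cd177 -0.16 (-0.70 to 0.39). These intervals are not adjusted over all genes, so effects unlike by up to their ends, and some beyond, could go uncalled. Both particles' estimates, which share the vehicle mice, were above 0 for 20 members and below 0 for 6. Over the 3 doses on day 1, 0 members were called and 2 passed unadjusted, against 0.125% of all genes called and 7.33% passing unadjusted. On day 28 that comparison called 4.75% of all genes and 0 members, with 7 members and 22.2% of all genes at an unadjusted p under 0.05, the nearest being Ctsg (-0.14 ± 0.05, adjusted p = 0.0542). At 162 µg on day 28, 0 members and 0 genes were called, with 4 members and 8.39% of all genes passing unadjusted.

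The members did not vary together as 1 block from mouse to mouse. Over the 69 arrays, with group means removed, the 406 pairs of members had Pearson correlations from -0.30 to 0.80 with a median of 0.14, and 50 pairs were over 0.5. These correlations describe arrays that share slides, so values with slide means removed are given too, and the blocks below were picked after the values were seen. Csf3r, Trem1, S100a8, S100a9 and Retnlg formed a block with r of 0.54 to 0.80 (0.36 to 0.81 with slide removed). Ltf, Cd177, Adam8 and Pglyrp1 formed another with r of 0.67 to 0.79 (0.69 to 0.86). Mpo, Camp and Ngp formed the next block, with r of 0.72 to 0.79 (0.75 to 0.87), and Fpr1, Fpr2 and Mcemp1 the last block, with r of 0.56 to 0.73 (0.53 to 0.69).

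**Figure D4:**
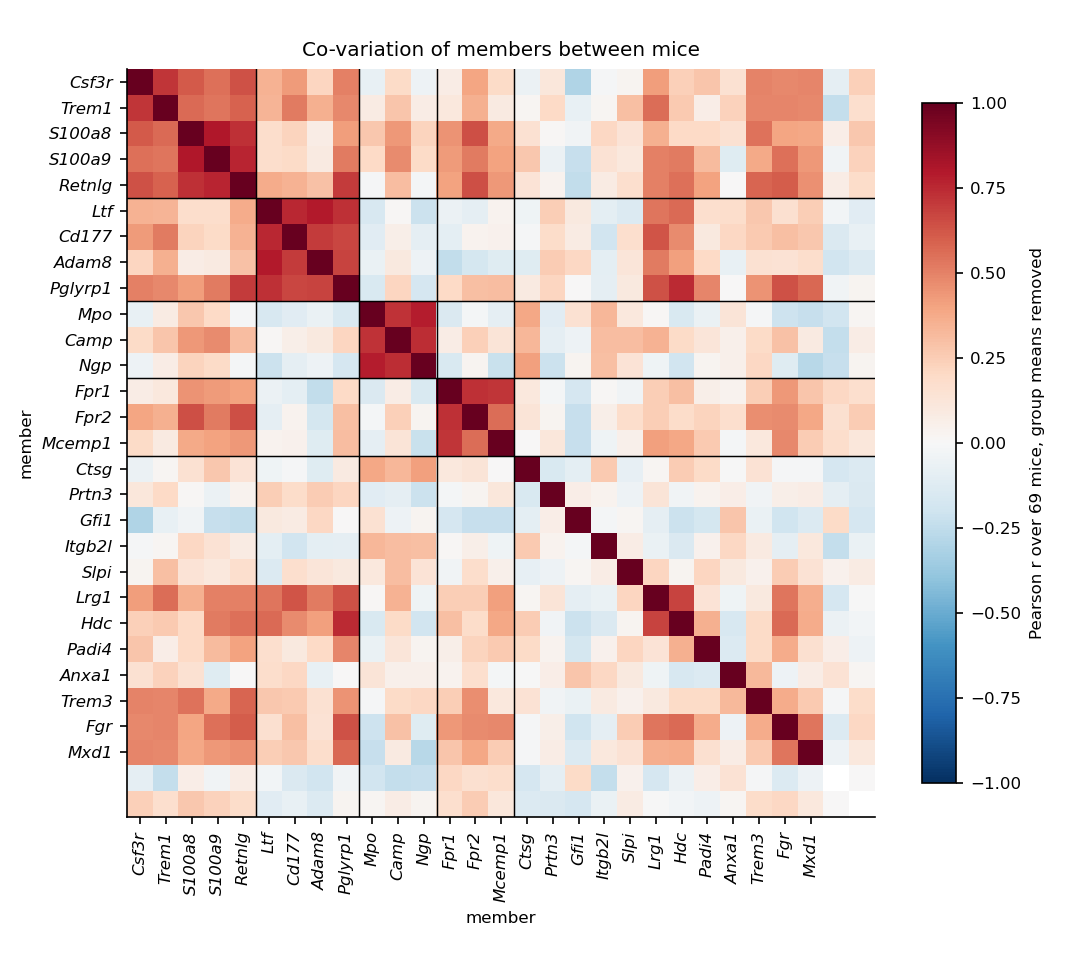
Pearson correlation between members over 69 mice with group means removed (colour, from -1 to 1), with lines around the 4 blocks picked after the values were seen. The blocks overlap in part: r between the first block, within which it is 0.54 to 0.80, and the others reaches 0.70 with the block of Ltf, 0.64 with that of Fpr1 and 0.47 with that of Mpo.

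Single genes of the other lists, also picked after the values were seen, were set against the blocks. With Cxcr2, the chemokine receptor of circulating neutrophils, r was 0.73 for Csf3r (rho 0.74; 0.61 with slide removed) and 0.77 for Trem1 (rho 0.73; 0.68), whereas it was 0.20 for Ltf and 0.30 for Cd177. With Mmp8, the neutrophil collagenase, the blocks differed less, with r of 0.58 for Csf3r, 0.60 for Trem1, 0.61 for Pglyrp1, 0.48 for Cd177 and 0.34 for Ltf. With Muc5b, an airway mucin gene, r was 0.93 for Ltf (rho 0.94; 0.93 with slide removed), 0.75 for Adam8, 0.71 for Pglyrp1 and 0.65 for Cd177, whereas it was 0.35 for Csf3r, 0.24 for Trem1 and 0.13 for S100a8. The airway genes did not act as one. With Bpifa1, a secreted protein of the upper airways, r was 0.84 for Ltf and 0.50 for Cd177, but with Scgb1a1, the club cell secretoglobin, it was 0.13 for Ltf, 0.05 for Adam8, 0.18 for Pglyrp1 and 0.13 for Cd177. Ltf is also known as a product of airway glands. On day 1 Muc5b was at 0.81, 0.68, 1.09, 1.34 and 3.79 in vehicle mice, at 4.81, 2.61, 2.33, 5.22 and 0.37 with 162 µg of NRCWE-001 and at 2.72, 4.79, 2.79, 4.28 and 4.07 with NRCWE-002, differences of 1.52 and 2.18 that were not called (adjusted p = 0.889 and 0.458). The vehicle mouse that was high for Muc5b was also the highest vehicle mouse for Ltf, and NRCWE-001 replicate 5 was lowest for both. The airway list as a whole had 0 of 5 genes called, and its mean level ran from 3.37 to 5.02 in vehicle mice, 3.19 to 5.42 with NRCWE-001 and 3.85 to 5.07 with NRCWE-002; its part in the Ltf, Cd177, Pglyrp1 and Adam8 values was not tested.

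Mpo, Camp and Ngp were together high in replicate 1 of the 54 µg NRCWE-001 group on day 1 (1.00, 1.73 and 0.80), in replicate 5 of the 54 µg NRCWE-001 group on day 28 (0.97, 1.91 and 0.92) and in vehicle replicate 2 on day 28 (0.81, 1.06 and 0.42). Without these 3 mice, picked after the values were seen, r over 66 mice was 0.33 for Mpo with Camp, 0.63 for Mpo with Ngp and 0.51 for Camp with Ngp. With Marco, a scavenger receptor of macrophages, r was 0.54 for Fpr1, 0.47 for Fpr2 and 0.64 for Mcemp1 (0.37, 0.40 and 0.49 with slide removed). Members outside that block had like values, among them Fgr at 0.62, Lrg1 at 0.54 and Retnlg at 0.50. Among the macrophage and monocyte genes at 162 µg on day 1, 1 of 10 was called lower with NRCWE-001, Siglecf of alveolar macrophages and eosinophils (-0.92 ± 0.24, adjusted p = 0.0499), and 0 of 10 with NRCWE-002. The mean level of that list ran from 2.04 to 2.46 in vehicle mice, 2.07 to 2.34 with NRCWE-001 and 2.24 to 2.47 with NRCWE-002, and its part in the Fpr1 values was not tested.

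**Figure D5:**
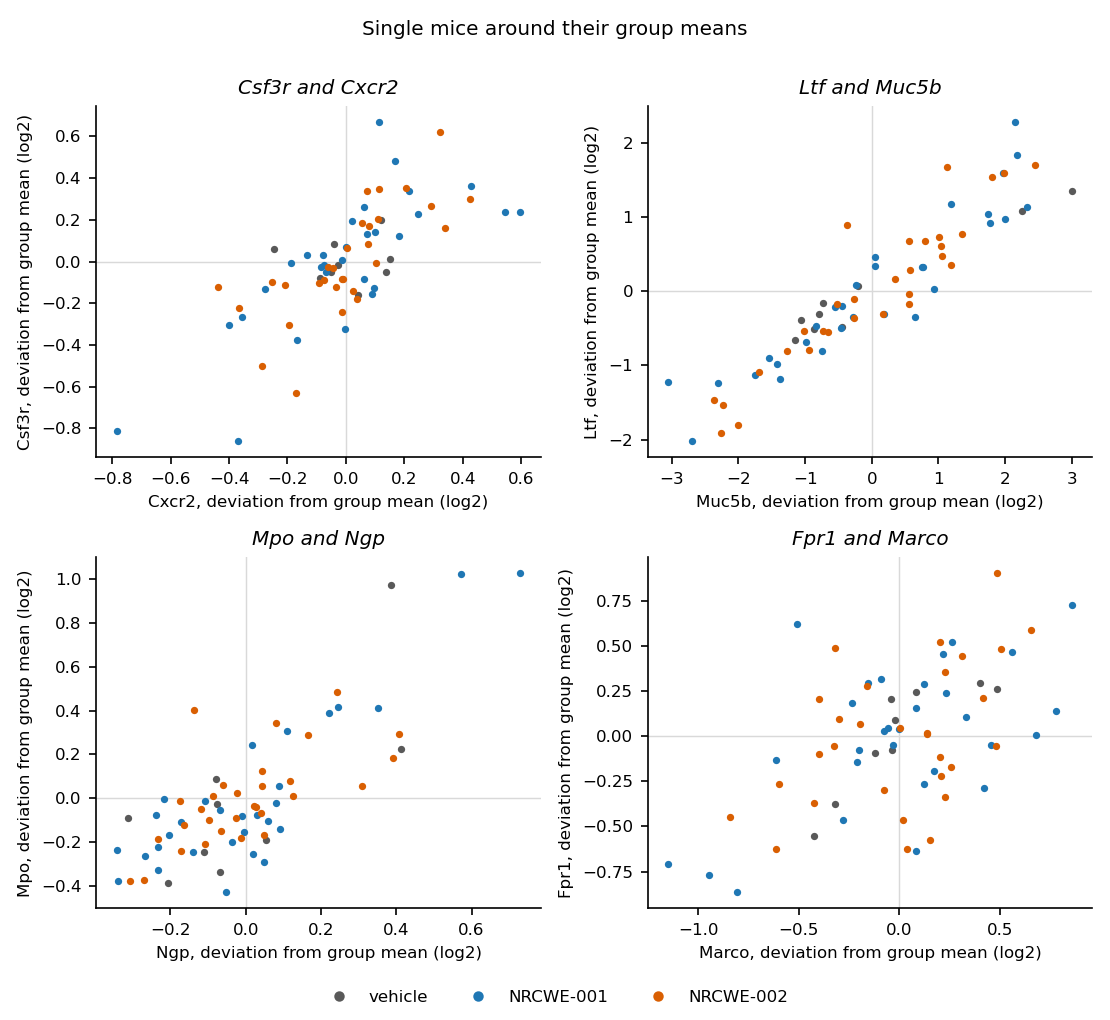
Deviation of each mouse from its group mean (log2) for 4 gene pairs, coloured by exposure. Ltf follows Muc5b closely (r 0.93), Csf3r follows Cxcr2 (r 0.73), Fpr1 follows Marco more loosely (r 0.54), and for Mpo with Ngp r is 0.79 with and 0.63 without 3 mice at the upper right.

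Of 28 other neutrophil genes on a separate list, 4 were called higher with 162 µg of NRCWE-001 on day 1, against 0.425% of all genes. With NRCWE-002, 2 were called higher, against 0.477% of all genes, and none was called lower with either particle. The largest were Lcn2, the siderophore-binding lipocalin (2.75 ± 0.61, adjusted p = 0.0140, and 3.02 ± 0.61, adjusted p = 0.00720), and the lectin receptor gene Clec4d (1.39 and 1.32). The list's median difference was 0.28 and 0.29, and 25 and 26 of its 28 estimates were above 0. The shares of all genes above 0 are given with the stage medians. Of 11 genes for mediators that recruit or sustain neutrophils, 1 was called with NRCWE-001, Il1b (1.62 ± 0.36), against the same 0.425% of all genes. With NRCWE-002, 3 were called, Cxcl5 (3.49 ± 0.78), Il1b (1.67 ± 0.36) and Cxcl3 (0.85 ± 0.19), against 0.477%. No gene of the alveolar, endothelial, lymphocyte, eosinophil, mast cell, red cell, cardiac muscle or adipocyte lists was called at 162 µg on day 1. On day 28 the score of the other neutrophil list was 0.46, -0.25, -0.02, 0.67 and 0.56 in the 162 µg NRCWE-001 mice. With NRCWE-002 it was 0.08, 0.37, -0.01, 0.17 and 0.11, and vehicle mice ran from -0.02 to 0.02. The mediator list scored 0.83, 0.22, 0.11, 1.13 and 1.19 with NRCWE-001 and 0.02, 0.10, 0.08, 1.03 and 0.80 with NRCWE-002. Vehicle mice ran from -0.08 to 0.07. These scores were not tested.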

How the data were processed

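Gene expression was measured on 69 two-colour Agilent arrays, 1 per mouse, with lung RNA in red (Cy5) and Universal Mouse Reference RNA in green (Cy3) and no dye swap. The deposited scanner files hold median intensity values per spot from Agilent Feature Extraction 11.0.1.1, and the deposited table holds log2 ratios that the authors made by LOWESS normalization. That table correlated with the ratios used here at 0.988 to 0.995 per array, its slope and its column medians (-0.0586 to -0.00264) fitted log2 of lung over reference without centring of genes, and it served as an alternative.

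Backgrounds were corrected with normexp (offset 50, which draws differences of dim probes towards 0) in limma 3.58.1 and R 4.3.3. Any spot with a local background more than 10 median absolute deviations away from the array's median (0 to 470 per array and channel) was left out of the normexp fit, a step added after the data were seen. Ratios were loess normalized with control spots at weight 0, flagged outliers were left out, and repeat spots were taken at their median. A probe was kept if it was well above background in the lung channel on at least 4 of 69 arrays (36452 of 41174). Symbols came from RefSeq (GRCm38.p6, names only), to which 27479 probes (66.7%) matched, and a gene is the median of its probes (17628 genes).

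One limma model with 14 group means was fitted over all genes, with moderated F-tests over doses and 2-sided contrasts, and p-values were adjusted by the Benjamini-Hochberg method over all genes (called: adjusted p under 0.05). The script was tested on simulated data. Depth does not apply to arrays, whose number limits the precision. Replicates are separate mice. Alternatives were other background corrections, median centring, the deposited table, other filters, the brightest probe, arrays of the same day, slide or scan day as a block, and each array left out in turn. The members and lists were chosen with earlier results of these data known. By rule, all members were accounted for, those called or with the largest change at 162 µg on day 1 in their role were given by array, and up to 3 genes of each other list were named; Muc5b, Cxcr2, Marco and Siglecf were chosen after their values were seen.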

Additional observations from a re-analysis of the deposited data

Results flagged for a closer look

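Of 224 sets of 4 or 5 mice checked for the scores and for the members given by array, 15 had 1 mouse far from the rest by Dixon's criterion, and chance gives about 1 in 20. Slpi stood at 3.77 in replicate 2 of 18 µg NRCWE-001 on day 1, the highest Slpi level of all 69 mice, and at -1.62 in vehicle replicate 5 on day 1. Cd177 was at 1.58 in replicate 5 of 18 µg NRCWE-002 on day 28. Csf3r was at 1.83 in replicate 2 of 162 µg NRCWE-002 on day 1, the high side of a tight group. Trem1 was at 0.16 in vehicle replicate 1 on day 28, below its 3 companions.

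The granule genes of marrow precursors gave most of the others. Mpo was at 0.97 and Camp at 1.91 in replicate 5 of 54 µg NRCWE-001 on day 28, and Mpo was at 0.81 and Camp at 1.06 in vehicle replicate 2 on day 28. Mpo was also at 0.21 in replicate 2 of 162 µg NRCWE-001 on day 28 and at 0.13 in replicate 5 of 18 µg NRCWE-001 on day 1. Camp was at 0.34 in replicate 4 of 162 µg NRCWE-001 on day 28 and at 1.29 in vehicle replicate 4 on day 1. Ngp was at -0.15 in replicate 2 of 162 µg NRCWE-001 on day 1, and the precursor score was 0.17 in replicate 2 of 54 µg NRCWE-002 on day 1.

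In 2 of 192 paired comparisons every mouse of one group moved the opposite way from every mouse of the other, and these differences were not tested. Csf3r at 54 µg on day 28 was on average 0.24 below vehicle with NRCWE-001 (difference -0.24) and above it by 0.26 with NRCWE-002. Lrg1 at 18 µg of NRCWE-001 was 0.33 above vehicle on day 1 and below it on day 28 (difference -0.18).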

How the results depend on the processing

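No paired analysis was possible because the labels give no replicate numbers that could pair samples, and those used here follow the order of the samples; slides that hold several groups were fitted as a block instead. Of 273 counts of called members under other processing, 241 lay within 1.5 times the reported count. Most reported counts were 0, and 0 against 0 was taken as unchanged, so that total says little about the calls. Among comparisons with called members, the NRCWE-001 count stayed within that limit in 4 of 12 settings for the F-test and in 5 at 162 µg. For NRCWE-002 it did so in 10 of 12 for the F-test and in 6 at 162 µg. The counts below are in the order F-test NRCWE-001, 162 µg NRCWE-001, F-test NRCWE-002 and 162 µg NRCWE-002, all on day 1, reported as 2, 3, 3 and 2, each set followed by the shares of all genes called in the same fits (reported as 0.686%, 0.562%, 0.817% and 0.59%). They were 0, 0, 0 and 1 with processed scanner signals (0.397%, 0.374%, 0.573% and 0.397%), 0, 1, 2 and 1 with median centring (0.21%, 0.21%, 0.55% and 0.227%), 0, 0, 0 and 0 with normexp fitted on all spots (0.465%, 0.613%, 0.335% and 0.193%), and 1, 1, 3 and 4 with arrays of the same day alone (2.18%, 1.51%, 2.97% and 2.68%). They were 11, 7, 3 and 2 with slide as a fixed block (7.39%, 4.3%, 2.41% and 1.93%), 8, 7, 4 and 4 with slide as a random block (5.71%, 3.31%, 2.83% and 2.91%) and 7, 5, 4 and 5 with scan day as a block (6.55%, 4.27%, 4.07% and 4.42%). The first was also 0 without a filter on dim probes. At 54 µg on day 1, slide as a fixed or random block gave 2 and 2 called members for NRCWE-001 (0.749% and 0.442% of all genes) and 3 and 4 for NRCWE-002 (1.39% and 1.12%), and scan day gave 1 for NRCWE-002 (0.771%). With slide fixed, 1 member (Anxa1) was called by the day 28 F-test of NRCWE-001. The share of all genes called in that fit is not given, so this count cannot be set against a background. The particle comparison over 3 doses on day 28 called 1 member without background correction, with median centring and in the deposited table (4.25%, 25.6% and 6.73% of all genes). Csf3r at 162 µg of NRCWE-001 reversed from 0.80 to -0.032 with processed scanner signals.

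Of 128 scores, 119 moved by less than 1 SD. With processed signals the 162 µg NRCWE-002 scores became 0.37 (all members, day 1), 0.42 (mature, day 1), -0.12 (all, day 28), -0.14 (secondary, day 28) and 0.047 (precursor, day 28). The precursor score on day 1 became -0.011 with median centring. With normexp on all spots the 162 µg NRCWE-001 scores on day 1 became -0.014 (all), -0.12 (mature) and 0.14 (precursor). The cause was not tested in any of these.

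Leaving out 1 array gave 0 to 3 and 0 to 4 called members in the NRCWE-001 F-test and 162 µg comparison of day 1, 1 to 4 and 0 to 2 in those of NRCWE-002, 0 to 2 in the particle comparison over 3 doses on day 28, and 0 in the other comparisons. Lrg1 was called in the NRCWE-002 F-test in all 20 of these fits. The shares of all genes called without single arrays are not given beside these counts. Dim precursor probes limit that stage.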
